A study of Mus musculus with 2 samples.

Results

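Short fragments of ribosomal protein mRNAs were counted in the small RNA libraries of J1 cells, a mouse embryonic stem (ES) cell line. A fragment is a tag, that is, a distinct sequence with its count of reads. A tag was a member when it was at least 20 nt long, matched in sense and with 0 mismatches a protein-coding transcript whose gene symbol starts with Rpl or Rps and a digit (GENCODE vM21, mouse build GRCm38), and matched no miRNA hairpin. Genes of the Rps6k kinases were left out. These criteria gave 16419 member tags of 1766298 distinct tags in both libraries, 11128 of them under DMSO and 8243 under AICAR, with 2952 in both. They came from 88 gene symbols, counted by symbol as 54 of the large subunit (Rpl) and 34 of the small subunit (Rps). Of these, 73 were ribosomal proteins, counting the ubiquitin fusion Rps27a, 7 paralogues, 7 retrocopies annotated as protein-coding, and 1, Rps19bp1, a nucleolar protein that is not part of the ribosome.

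Values are given for the DMSO library first and the AICAR library second. The AICAR library came from J1 cells given 1 mM AICAR, an adenosine analogue that enters cells and activates the energy sensor AMPK, and the DMSO library from cells that received the same volume of the solvent (0 mM AICAR). Cells of both groups were kept on gelatin with LIF and serum replacement, and RNA was taken after 24 h. For the cells of its real-time PCR, the study names serum and LIF instead. The control is titled J1_U, but its treatment label is DMSO. There was 1 library per condition, so every difference below has no replicate check and compares the libraries, not the conditions.

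Ribosomal proteins assemble with ribosomal RNA into the large and the small subunit of the ribosome, and their mRNAs are among the most abundant in growing cells. Most of these mRNAs begin with a terminal oligopyrimidine tract, through which the kinase mTORC1 controls their translation, and AMPK restrains mTORC1. A library made from small RNA also holds pieces of longer RNAs, and the tags below are such pieces.

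The coding tags with the most reads show what the fragments were. In the sequences below, given 5′ to 3′ as DNA letters, capitals mark the stretch that the most-read tags with the same end have in common. Some of these tags are not printed, so the printed ones can share more than the capitals. Lengths, reads and positions follow each set, with coordinates on GRCm38 and codons and exons counted on the principal transcript.

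Rps6, the substrate of the S6 kinases, gave the most-read coding tag, and these 3 tags shared its first base:
Rps6 tag of 21 nt: TTGGTGAAGAGTGGAAGGGTt
Rps6 tag of 22 nt: TTGGTGAAGAGTGGAAGGGTta
Rps6 tag of 26 nt: TTGGTGAAGAGTGGAAGGGTtatgtg
The tag of 21 nt had 110 reads under DMSO and 23 under AICAR. The tag of 22 nt had 11 and 4 reads, and so did the tag of 26 nt. The tag of 21 nt lies in codons 41 to 48 and crosses the junction of exons 2 and 3 of 5 on the minus strand of chromosome 4, in the pieces chr4:86856728-86856744 and chr4:86856353-86856356. The same sequence also occurs in 14 annotated pseudogenes.

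Rps3, which lines the mRNA entry channel of the small subunit, gave tags that matched no other gene. These 3 shared their first base:
Rps3 tag of 22 nt: CAAGAAGAGGAAGTTTGTAGct
Rps3 tag of 23 nt: CAAGAAGAGGAAGTTTGTAGctg
Rps3 tag of 24 nt: CAAGAAGAGGAAGTTTGTAGctga
They had 47 and 14 reads, 38 and 27 reads, and 8 and 7 reads under DMSO and AICAR. They start in codon 6 and cross the junction of exons 1 and 2 of 7 on the minus strand of chromosome 7. The tag of 23 nt covers chr7:99483592-99483604 and chr7:99482691-99482700.

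Rps26, a small subunit protein, showed another arrangement, in which the tags had their last base in common:
Rps26 tag of 20 nt: GGACATATCTGAAGCAAGCG
Rps26 tag of 21 nt: gGGACATATCTGAAGCAAGCG
Rps26 tag of 22 nt: agGGACATATCTGAAGCAAGCG
They had 23 and 11 reads, 39 and 22 reads, and 75 and 52 reads. The tag of 22 nt lies in exon 2 of 4, at chr10:128626072-128626093 on the minus strand. The 7 tags that ended at this base, coding base 172, had 142 and 87 reads and held 30.9% of the reads of the gene.

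Rps12, a small subunit protein, gave tags with a common first base in codon 100, in exon 5 of 6:
Rps12 tag of 21 nt: ACGGAAGGTGGTTGGTTGCAG
Rps12 tag of 23 nt: ACGGAAGGTGGTTGGTTGCAGtt
Rps12 tag of 24 nt: ACGGAAGGTGGTTGGTTGCAGttg
Rps12 tag of 27 nt: ACGGAAGGTGGTTGGTTGCAGttgcgt
Their reads were 14 and 1, 20 and 13, 69 and 27, and 15 and 1 under DMSO and AICAR. The tag of 24 nt is at chr10:23785589-23785612 on the minus strand and also matches 20 other genes, 19 of them pseudogenes.

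Among the other leading coding tags, 3 are shown here to compare a tag whose interval lay below 1 with others whose interval spanned 1:
Rps2 tag of 20 nt: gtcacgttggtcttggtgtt
Rpl5 tag of 23 nt: ggatatgatcgtctgtgcagcat
Rps9 tag of 22 nt: tggagaggcggctgcagaccca
The Rps2 tag, at chr17:24720997-24721016 on the plus strand, had 38 reads under DMSO and 15 under AICAR (fold 0.353, 95% interval 0.180 to 0.657). The Rpl5 tag, at chr5:107903292-107903314 on the plus strand, had 24 and 28 reads, and the Rps9 tag, at chr7:3705829-3705850 on the plus strand, had 26 and 23. The fold was 1.04 (0.583 to 1.88) for the Rpl5 tag and 0.791 (0.431 to 1.44) for the Rps9 tag, and both intervals span 1. A further leading tag, from Rps21, covers the start codon and had 35 and 23 reads.

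Member reads were fewer in the AICAR library. The DMSO library held 20442 member reads of 18870345 clean reads, or 1083 reads per 1000000 clean reads (RPM), and the AICAR library held 13554 of 21091226, or 643 RPM. The AICAR level was 0.593 of the DMSO level (95% interval 0.580 to 0.606). Intervals are exact binomial ones and reflect counting error alone, since PCR reads without molecular identifiers are not independent molecules. The large subunit gave 10722 and 7283 reads, a fold of 0.608 (0.590 to 0.626), and the small subunit 9737 and 6287 reads, a fold of 0.578 (0.560 to 0.596). Distinct member tags were fewer as well, with a fold of 0.621 (0.603 to 0.639) after scaling to all distinct tags of each library (910008 and 1085873). In bulk RNA, fewer fragments, fewer mRNA molecules to be cut and a change in the cells that supply the RNA cannot be told apart.

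The members were a small share of the libraries, 0.108% of clean reads under DMSO and 0.0643% under AICAR. All sense reads on protein-coding transcripts at the same length minimum had a fold of 0.810 (0.806 to 0.813), and those outside the members 0.820 (0.817 to 0.824). Reads on miRNA hairpins had a fold of 1.35 (1.348 to 1.352). Because the share of hairpin reads moved between the libraries, every RPM value here depends on it, and the choice of scale moved the median log2 fold of all protein-coding genes. Relative to clean reads, scaling to sense protein-coding reads moved that median by 0.30, TMM factors by 0.19, median-ratio factors by 0.16 and scaling to hairpin reads by -0.43. Each scale moves all genes by the same factor, so the difference between the median of the ribosomal protein genes and that of all protein-coding genes, -0.59 on the log2 scale, is the same by construction. Scaled to the coding reads of the other protein-coding genes, the total fold of the members was 0.742 (0.726 to 0.758).

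Of the ES cell markers, 12 of 12 had at least 10 reads, with 1381 reads under DMSO and 1343 under AICAR in all. Pou5f1 had 215 and 156 reads and Nanog 95 and 139. Of the 12 markers, 1 passed the thresholds as lower, namely Lin28a with 45 and 7 reads (fold 0.139, 0.0530 to 0.311), and 0 as higher. Of 9 markers of differentiated derivatives 2 reached 10 reads, and Gata6 and Afp had 0 in both libraries. Of the fibroblast markers, Col1a1, Col1a2, Col3a1 and Thy1 had at most 2 reads in a library, and Fn1 had 267 and 292 and Acta2 28 and 14. The part of cell composition in the results was not tested.

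All 88 genes had a read in both libraries, and 85 reached the minimum of 10 reads over both that was set for a test. Rpl36-ps4, Rpl3l and Rps19bp1 did not reach it. The AICAR level was below the DMSO level in 84 of the 85, against 60.9% of all 8942 protein-coding genes tested. The 95% interval lay wholly below 1 in 72 and spanned 1 in 13. By a fold of at most 0.5 and p at most 0.01 by Fisher's exact test, 2-sided, 16 of the 85 genes were lower in the AICAR library, or 18.8%, against 4.47% of all protein-coding genes tested. By a fold of at least 2 and the same p, 0 of the 85 were higher, against 3.41% of all protein-coding genes. Fisher's p was at most 0.01 in 65 of the 85, and under 0.05 in 73. The median fold was 0.595 (log2 -0.75), against 0.895 (log2 -0.16) over all protein-coding genes tested.

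The counts depend on depth and scale. Among genes with at least 100 reads, 14 of 78 ribosomal protein genes were lower, with a median fold of 0.600, and 68 of 1628 genes outside the list, with a median fold of 0.970. Counting coding reads alone, with at least 100 of them, the medians were 0.604 over 75 ribosomal protein genes and 0.773 over 491 others. The count of 16 became 4 when reads were scaled to sense protein-coding reads and 61 when they were scaled to hairpin reads. Under edgeR's exact test with an assumed coefficient of variation of 0.4 between samples, it became 0. For these other scales and this test the share over all protein-coding genes is not given here. The changed counts are therefore not read as a result about the ribosomal protein genes.

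**Figure D1:**
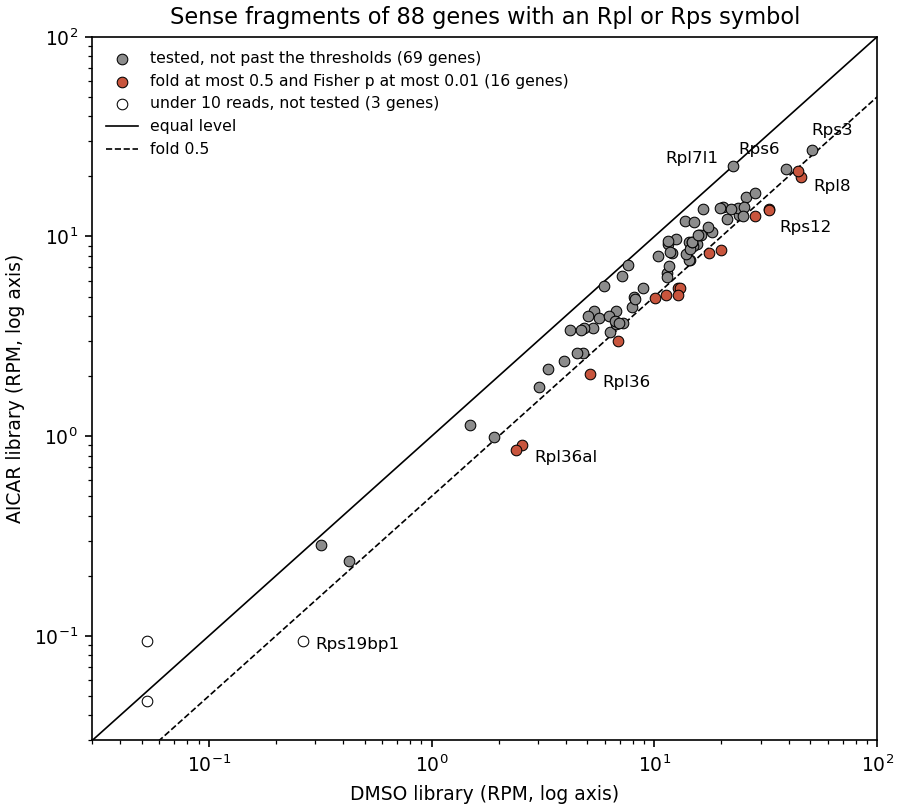
Level of each of the 88 genes in the DMSO library (horizontal, RPM) and in the AICAR library (vertical, RPM), both on log axes, with 1 point per gene and 1 library per condition. The 16 genes past both thresholds are in red, on or below the dashed line of fold 0.5, and Rpl7l1 lies on the solid line of equal level.

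The genes kept nearly the same order of level in both libraries. Over the 88 genes, Spearman's rho between the RPM values was 0.959 and Pearson's r of log2 RPM 0.978, given as a description across genes, which share reads and are not replicates. Per kilobase of reference transcript and over both libraries, Rps12 stood highest, with 71.2 RPM per kb under DMSO and 29.7 under AICAR. With the most-read transcript as reference it came after its retrocopy, at 38.8 against 45.7 RPM per kb over both. This retrocopy, Rps12-ps3, had 66.1 and 27.5 RPM per kb, but these are nearly the same reads, since 0.331% of Rps12 reads matched 1 protein-coding gene alone. Rps18, which bridges to the large subunit, followed over both libraries with 50.3 and 22.6 RPM per kb. Rps27, a zinc finger protein of the small subunit, had 42.9 and 27.3, and shared all of its 478 reads with the copy Rps27rt, at 39.5 and 25.2.

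Of the other genes among the 10 highest, Rps6 had 44.5 RPM per kb under DMSO and 24.8 under AICAR. Rps21, of the small subunit, had 38.3 and 29.8, the highest value of the AICAR library, in which Rps27, Rps27rt and Rps6 also stood above Rps18. Rps2, near the mRNA entry of the small subunit, had 45.8 and 22.1. Among large subunit genes, Rpl8, which reaches toward the peptidyl transferase centre, had 44.8 and 19.5, and Rpl41, which encodes a very short basic peptide, had 35.7 and 20.7. Each of the 10 had a fold below 1, and 8 of the 10 have small subunit symbols. These 8 include Rps12-ps3 and Rps27rt, which repeat the reads of Rps12 and Rps27. Over the 85 tested genes the median was 13.5 RPM per kb under DMSO and 8.20 under AICAR.

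Among the genes that passed the thresholds, 7 belong to the small subunit and 9 to the large subunit. Of those at the decoding and mRNA entry side, Rps23, which sits at the decoding centre, had 242 reads under DMSO and 108 under AICAR, a fold of 0.399 (0.315 to 0.503). Rps10, a target of ubiquitin ligases at stalled ribosomes, had 247 and 117 reads, a fold of 0.424 (0.337 to 0.530). Rps12 had 618 and 288 reads, a fold of 0.417 (0.361 to 0.480). Fisher's exact test gave p = 1.4e-16 for Rps23, 2.2e-15 for Rps10 and 3.8e-37 for Rps12. Rps12-ps3 repeats the Rps12 reads, with 616 and 287. Rps15, Rps18 and Rps2 also passed, with folds of 0.437, 0.449 and 0.482.

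In the large subunit, Rpl8 had 862 and 420 reads, a fold of 0.436 (0.387 to 0.490, p = 3.1e-47, Fisher's exact test), and 91.3% of its reads matched no gene outside the list. Rpl12, at the base of the stalk where elongation factors bind, had 240 and 117 reads, a fold of 0.436 (0.347 to 0.546). Rpl13a, which also takes part in a translation silencing complex of inflammation, had 374 and 181 reads, a fold of 0.433 (0.361 to 0.518). Rpl36 had 97 and 43 reads, a fold of 0.397 (0.270 to 0.574). The smallest folds of the tested genes belonged to genes with few reads, namely Rpl36al, a paralogue of Rpl36a, with 48 and 19 reads (0.354, 0.197 to 0.614), and the retrocopy Rpl9-ps1, with 45 and 18 (0.358, 0.195 to 0.631). Of their reads, 59.7% and 3.17% matched 1 protein-coding gene alone, so nearly all Rpl9-ps1 reads were shared with other genes. Rpl11, which with Rpl5 and the 5S rRNA forms a particle that binds Mdm2, Rpl17 at the peptide exit tunnel and Rpl27a completed the 16, with folds of 0.470, 0.454 and 0.490. The large subunit gene nearest to the threshold among those outside it was Rpl37a, with a fold of 0.509, and the nearest small subunit gene was Rps26, with 0.502.

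At the other end, the 5 genes with the largest folds among those with at least 100 reads had intervals that span 1. Rpl7l1, a paralogue of Rpl7, had 427 and 478 reads, a fold of 1.00 (0.877 to 1.14). Of its reads, 91.8% were on tags that each match at least 20 genes, and 3.09% lay in the coding sequence. Its tags that match neither so many genes nor a small non-coding transcript had 44 and 30 reads, a fold of 0.610 (0.370 to 0.992). Most Rpl7l1 reads thus lay in sequence that is common to many genes, and the cause of its fold was not tested. Tags that match at least 20 genes had a fold of 0.471 (0.380 to 0.582) in Rps12 and 1.46 (1.02 to 2.11) in Rps13. Rpl22, an RNA-binding protein of the large subunit, had 112 and 119 reads (0.951, 0.728 to 1.24), Rpl6 had 144 and 151 (0.938, 0.742 to 1.19), and Rps25, needed by some viral internal ribosome entry sites, 135 and 134 (0.888, 0.694 to 1.14). Rpl23, another Mdm2-binding protein, had 259 and 251 reads (0.867, 0.726 to 1.04), of which 40.4% were on tags that match a small non-coding transcript. Its tags that match neither such a transcript nor at least 20 genes had 158 and 145 reads (0.821, 0.651 to 1.04), an interval that still spans 1.

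**Figure D2:**
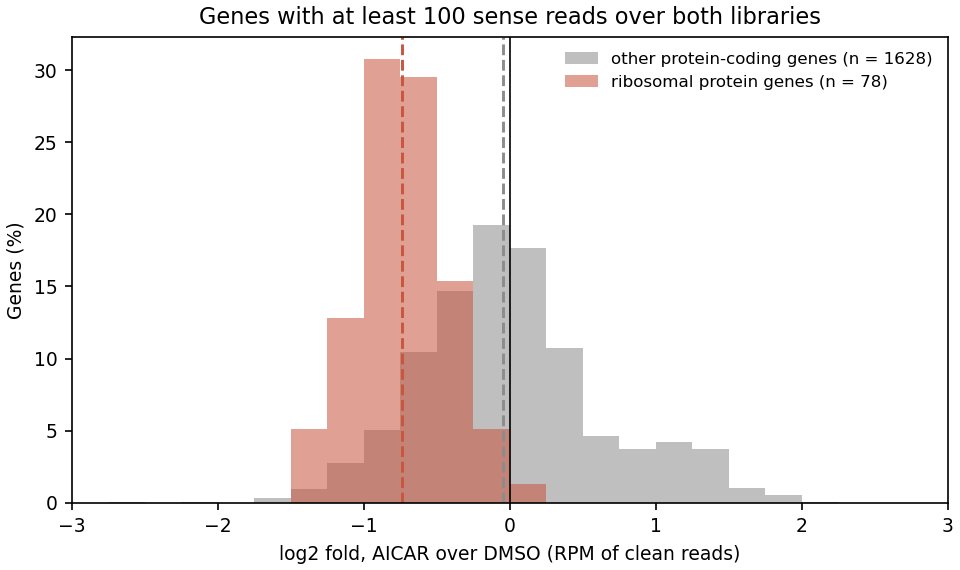
Share of genes (%) by log2 fold, AICAR over DMSO in RPM of clean reads, for 78 ribosomal protein genes (red) and 1628 other protein-coding genes (grey) with at least 100 sense reads. Dashed lines mark the medians, at -0.74 and -0.04, and the red histogram lies almost wholly left of 0.

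Rps27a, which encodes ubiquitin fused to a small subunit protein, had 155 and 103 reads (fold 0.595, 0.459 to 0.768). Rps19bp1, which is not a ribosomal protein, had 5 and 2 reads and was not tested.

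Other lists of related function were counted by the same thresholds, which 4.47% of all protein-coding genes tested passed as lower and 3.41% as higher. The 7 ribosomal proteins without an Rpl or Rps number all had folds below 1, with a median of 0.416, and 4 passed the thresholds as lower. These were the stalk proteins Rplp0 with 588 and 270 reads (0.411), Rplp1 with 323 and 134 (0.371) and Rplp2 with 126 and 56 (0.398), and Rpsa with 419 and 195 (0.416). Rack1, a signalling scaffold on the small subunit, had 441 and 354 reads (0.718, 0.623 to 0.828).

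Of 18 translation factors and partners whose mRNAs are known or thought to have the same type of 5′ start, 3 were lower, namely Eef1d, Eef1g and Eif3h, and 0 were higher. Their median fold was 0.713. The elongation factors Eef1a1 (2581 and 1636 reads, 0.567) and Eef2 (1169 and 729, 0.558) had folds near the ribosomal protein median without passing the threshold, whereas Nap1l1 had 174 and 194 reads (0.998). Of 15 ribosome assembly genes 2 were lower, Gar1 and Ebna1bp2, and 0 higher, with a median of 0.855. Of 56 tested genes for mitochondrial ribosomal proteins 3 were lower (5.36%, near the share over all genes) and 2 higher. Their median was 0.895, as over all protein-coding genes. This is the fold of any gene with equal reads in both libraries, so the equality can be a tie of low counts. Of 12 abundant mRNAs of other functions 0 passed in either direction, with a median of 0.779 and a range from 0.514 (Hspa8) to 1.07 (Gapdh).

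Member tags ran from 20 to 34 nt without a single preferred length. The mean was 23.2 nt in both libraries, with an SD over reads of 2.56 nt under DMSO and 2.39 nt under AICAR, and the median was 23 nt in both. The most frequent length was 21 nt under DMSO (16.4% of member reads) and 22 nt under AICAR (15.2%). Reads on miRNA hairpins were more tightly spread in these libraries, with SDs of 1.29 and 1.06 nt. Tags of 20 to 24 nt held 70.1% of member reads under DMSO and 70.8% under AICAR, a difference that Fisher's exact test did not separate from 0 (p = 0.186).

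The fold was below 1 at each length from 20 to 31 nt, with the whole interval below 1 at each. It was 0.521 (0.492 to 0.551) at 21 nt and 0.686 (0.646 to 0.728) at 23 nt, and it was 0.390 (0.329 to 0.462) at 29 nt and 0.294 (0.205 to 0.414) at 30 nt. Tags of at least 28 nt accordingly held 7.27% of member reads under DMSO and 5.35% under AICAR. All clean reads changed with length in a like way, with folds of 0.877 at 21 nt, 1.25 at 23 nt and 0.562 at 30 nt. The other protein-coding fragments had folds of 0.738, 0.976 and 0.630 at these lengths, above the members at each.

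**Figure D3:**
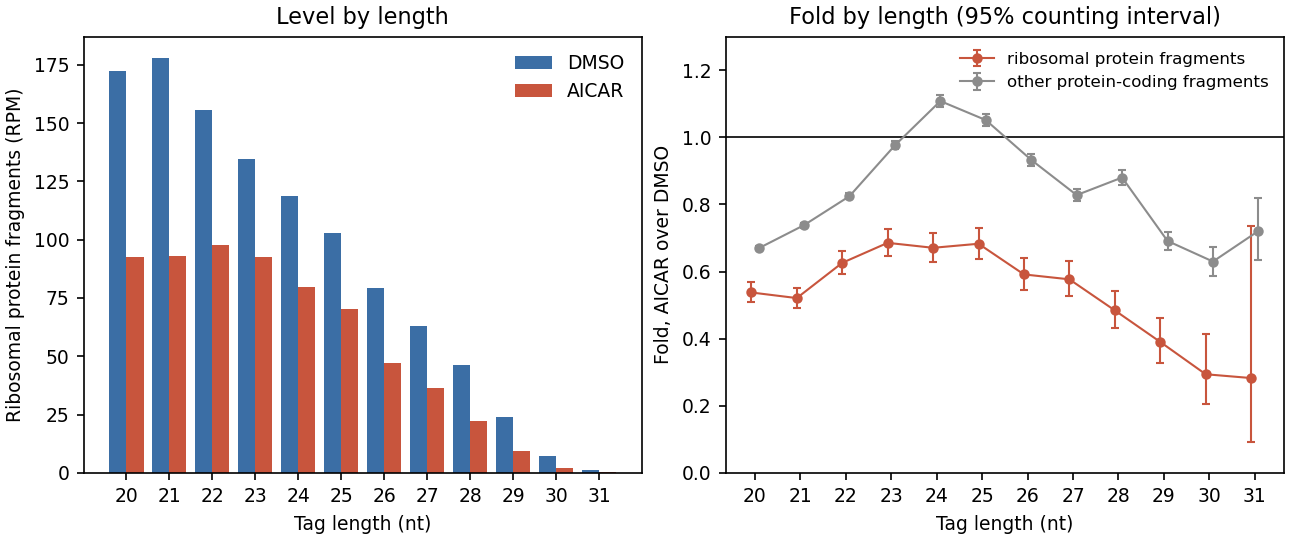
Left, level of ribosomal protein fragments (RPM) by tag length (nt) under DMSO and AICAR. Right, fold of AICAR over DMSO by tag length for these fragments (red) and for the other protein-coding fragments (grey), with 95% counting intervals. Lengths of 20 to 31 nt are plotted, and the red points lie below 1 at each of these and lowest at 30 and 31 nt.

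Most fragments came from coding sequence. By the middle base of the tag, 88.8% (Wilson 95% interval 88.4 to 89.3) of member reads under DMSO and 85.1% (84.5 to 85.7) under AICAR were coding, whereas coding sequence made up 51.2% of the length of the reference transcripts. The 5′ UTR held 3.97% and 5.72% of the reads and 16.3% of the length, and the 3′ UTR 7.19% and 9.16% of the reads and 32.5% of the length. These length shares depend on the reference, which was the longest transcript where several had the longest coding sequence. Rps15a, for example, has 393 coding nt in a reference of 5179 nt. Among the tags that matched no gene outside the list, the shares of reads were 71.6% and 67.7% coding, 13.2% and 17.5% 5′ UTR, and 15.2% and 14.9% 3′ UTR. The other protein-coding fragments were coding in 29.9% and 29.1% of reads. The coding share of the members was lower in the AICAR library by Fisher's exact test (p = 1.3e-23). The fold was 0.568 (0.555 to 0.582) for coding reads, 0.854 (0.773 to 0.943) for 5′ UTR reads and 0.756 (0.700 to 0.816) for 3′ UTR reads. The other protein-coding fragments had folds of 0.796 (0.790 to 0.803), 1.04 (1.03 to 1.06) and 0.812 (0.808 to 0.817) in the same order. Their 5′ UTR share was 5.55% and 7.07%, so a shift from coding to 5′ UTR reads was not particular to the members.

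A few genes with shared sequence carried much of the UTR reads. Rpl7l1 gave 32.4% of the 3′ UTR reads, and Rpl32 gave 21.1% of the 5′ UTR reads. Of the Rpl32 reads, 54.98% were on tags that also match the small nucleolar RNA Snora7a, at 162 reads under DMSO and 169 under AICAR. Rps13 had 41 and 77 reads on tags that match small non-coding transcripts, a fold of 1.68 (1.14 to 2.52), and 144 and 83 reads on its other tags, a fold of 0.516 (0.389 to 0.680). Without the tags that match a small non-coding transcript, the coding share was 91.5% and 89.8% (p = 1.7e-07, Fisher's exact test), the fold of 3′ UTR reads was 0.610 (0.554 to 0.672) and that of 5′ UTR reads 0.834 (0.746 to 0.933). The fold of coding reads was then 0.568 (0.555 to 0.582), within the interval of the 3′ UTR reads and below that of the 5′ UTR reads.

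Along the coding sequence the fragments were spread from start to stop. When the coding sequence was divided into 10 equal sections, each held between 8.08% and 12.6% of the coding reads under DMSO and between 7.54% and 12.6% under AICAR, and the fold ranged from 0.498 in section 7 to 0.637 in section 10. The first base fell on codon position 1 in 36.2% of coding reads under DMSO and 36.1% under AICAR, on position 2 in 33.5% and 33.1%, and on position 3 in 30.3% and 30.8%. Tags that start within 10 nt of the annotated transcript start held 72 and 71 reads. The start codon was covered by 581 and 535 reads and the stop codon by 560 and 401.

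**Figure D4:**
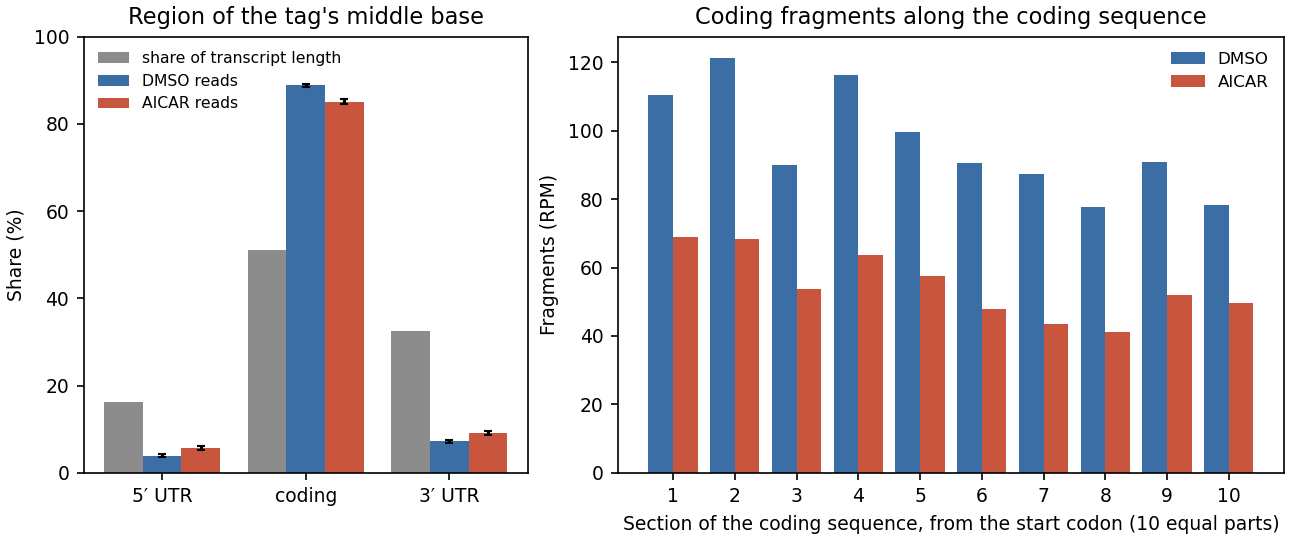
Left, share (%) of ribosomal protein fragment reads by region of the tag's middle base in each library, with Wilson 95% intervals, beside the share of the reference transcript length in grey. Right, coding fragments (RPM) in 10 equal sections of the coding sequence, counted from the start codon. Coding sequence held 88.8% and 85.1% of reads, and the AICAR bar is the lower in each section.

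The ends of the coding tags were uneven in base. Their first base was A in 39.5% of DMSO reads and 39.8% of AICAR reads, against 27.9% of the coding bases of the reference transcripts, and G in 16.5% and 18.5%, against 27.9%. Their last base was G in 36.2% and 33.7% and C in 14.5% and 14.3%, against 27.9% and 24.3%. The base before the first was G in 32.03% and 29.8%. Reads of a few abundant tags weigh in these shares, and ligation preferences of the library preparation were not tested.

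In some genes the reads piled up at a few places, at which tags shared an end. The most frequent first-base position held a median of 11.4% of the reads on the reference transcript. For the most frequent last-base position the median was 9.78%. In the 85 tested genes a median of 86.6% of coding bases was covered by at least 1 tag, and the most-read tag held a median of 5.29% of the reads of its gene. At a minimum of 60 reads there were 54 such coding end sites in 19 genes, 27 by first base and 27 by last base. Of them, 51 had a fold below 1 and 3 above 1, and 38 had the whole interval below 1 and 0 above 1. The sites were chosen by their reads over both libraries. First-base and last-base sites can hold the same tags, so the 54 are not separate observations. The Rps6 tag of 21 nt, for example, counts both at first base 122 and at last base 142. A like share for sites of other genes is not given here.

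Some sites of 1 gene differed in fold and others did not, and the sites below are given as a description only. In Rps6, the site at coding base 122, whose tags are printed above, had 138 and 33 reads, a fold of 0.214 (0.142 to 0.315), whereas the site at coding base 259 had 46 and 49, a fold of 0.953 (0.624 to 1.46). These intervals do not overlap. In Rps3 the site at coding base 18 had 126 and 63 reads (0.447, 0.325 to 0.610) and the site at coding base 451 had 110 and 39 (0.317, 0.214 to 0.461), intervals that overlap. The adjacent Rps3 site at coding base 19 had 110 and 50 reads (0.407, 0.285 to 0.573). In Rps12 the site at coding base 300 had 153 and 55 reads (0.322, 0.232 to 0.440). The Rps21 tags at the start codon had the largest fold of the 54 sites, with 33 and 50 reads for those ending at coding base 19 (1.36, 0.856 to 2.17), next to 85 and 54 for those ending at coding base 17 (0.568, 0.396 to 0.809).

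**Figure D5:**
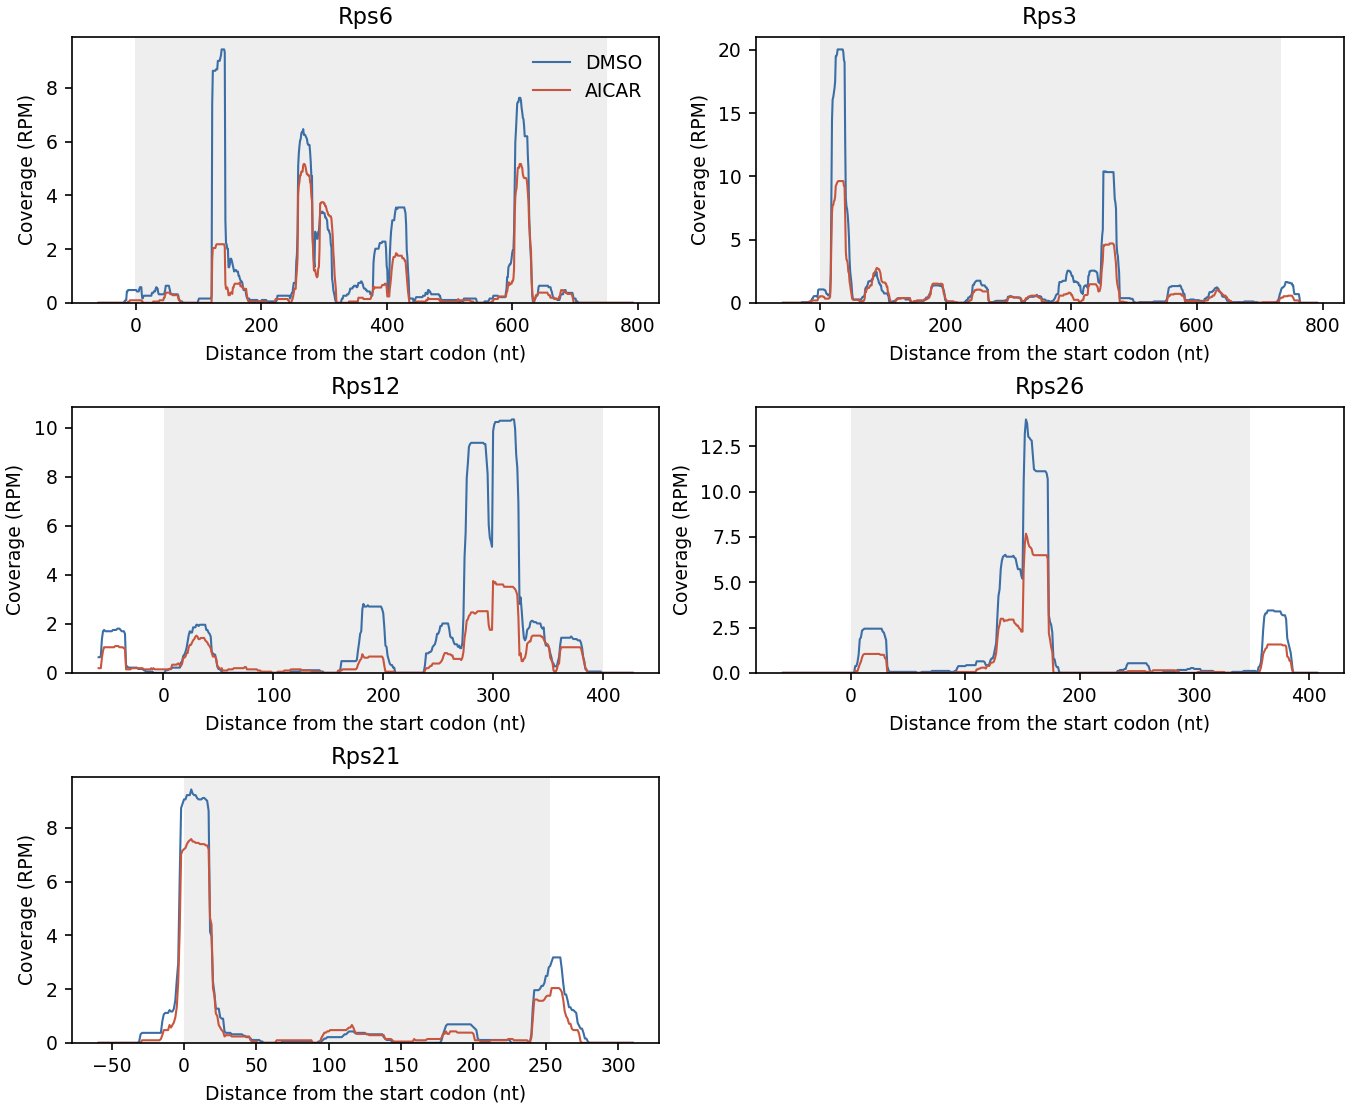
Read coverage (RPM) along 5 ribosomal protein transcripts by distance from the start codon (nt) under DMSO and AICAR, with the coding sequence shaded. The highest DMSO peak, 20.03 RPM in Rps3 at base 28, stands at 9.58 RPM in the AICAR library, and the Rps6 peak near base 137 at 9.43 against 2.18 RPM.

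Single tags have fewer reads than most genes, so a wider spread of their folds would follow from counting error alone. Of the members, 52 tags had at least 30 reads, and they held 7.66% of member reads, whereas 10749 of the 16419 tags were read once in all. Of the 52, 43 had a fold below 1 and 9 above 1, with a median of 0.513. The largest fold was 1.94 (0.944 to 4.22), for an Rps21 tag with 12 and 26 reads. A like share for tags of other genes is not given here. The coding tags with the smallest folds, named after their values were seen, were these:
Rps10 tag of 20 nt: tttttaaggagggcgtgatg
Rps18 tag of 22 nt: acagaaggatgtgaaggatggg
Rpl12 tag of 21 nt: aagaaagttggcgatgacatt
The Rps10 tag, in exon 2 at chr17:27634413-27634432 on the minus strand, had 33 reads under DMSO and 1 under AICAR, a ratio of 0.0271 (0.000666 to 0.162). The Rps18 tag, at chr17:33952415-33952436 on the minus strand, had 28 and 3 reads, a ratio of 0.0959 (0.0187 to 0.310). The Rpl12 tag, at chr2:32962580-32962600 on the plus strand, had 27 and 3, a ratio of 0.0994 (0.0193 to 0.323). These tags reached 30 reads mainly through the DMSO library, and their ratios are a description only. When the most-read tag of each gene was left out, the total fold was 0.600 (0.586 to 0.613) and 17 genes were lower. A like share over all protein-coding genes is not given for this count.

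Sequence shared with other genes limits what a tag says of its gene. Of the member reads, 21.5% matched no gene outside the list, 74.3% also matched an annotated pseudogene outside the list, and 3.90% a small non-coding transcript. Reads from a gene and from a transcribed pseudogene with the same sequence cannot be told apart. The tags that matched no other gene had 4306 and 3007 reads, a fold of 0.625 (0.596 to 0.655), and those that also matched a pseudogene 15343 and 9924, a fold of 0.579 (0.564 to 0.594). The tags that also matched a small non-coding transcript had 608 and 717 reads, a fold of 1.06 (0.946 to 1.18), and were not lower.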

How the data were processed

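The authors sequenced small RNA of an 18 to 30 nt fraction per the study's methods, whereas the extract protocol in the labels names a kit for RNA libraries. They removed low-quality and contaminant reads and deposited the count of clean reads of each distinct tag with its length, without normalization or alignment. The build in the submitters' processing notes is mm9. Coordinates here come from matching tags to GENCODE vM21 transcripts (GRCm38). A tag counted in full for each gene that it matched. The deposited counts were divided by the 18870345 (DMSO) and 21091226 (AICAR) clean reads, so that 1 read is 0.0530 and 0.0474 RPM.

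Genes with at least 10 reads over both libraries were compared by Fisher's exact test (two-sided) of their reads against the other clean reads, at a fold of at most 0.5 or at least 2 and p at most 0.01. Folds have 95% exact binomial intervals and shares 95% Wilson intervals, both for counting error only. Levels per kilobase and regions used the transcript with the longest coding sequence as reference, and the longest of these where several tied. Codons, exons, coding bases and coverage used the APPRIS principal transcript, which 82 of the 88 genes have.

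Named genes are the 10 highest per kilobase, up to 10 largest changes past the thresholds in each direction, the 5 largest and 5 smallest folds with at least 100 reads, Rps27a and Rps19bp1. The remaining genes past the thresholds, the genes nearest to them and those that carry UTR reads were named after their values were seen. Tags are the 12 most-read coding tags, at most 2 per gene, and those that share their ends. Some of the genes and tags that these rules select are not reported here by name. Members, lists and tests were chosen with earlier results of these data known. Alternatives were other lengths, tag filters, scales, minimums, thresholds and edgeR's exact test. Scaling to the coding reads of other genes and leaving out Rpl7l1 were chosen after seeing the data. Matching and calls were tested on simulated data. Full rRNA and tRNA sequences, the genome and mRNA levels were not analysed here. Python 3.11.15, numpy 2.4.6, numba 0.67.0, scipy 1.17.1, pandas 2.3.3, matplotlib 3.10.9, R 4.3.3 and edgeR 4.0.16 were used.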

Additional observations from a re-analysis of the deposited data

How the results depend on the processing

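The total fold of the ribosomal protein fragments stayed below 1 in each of 15 alternatives, from 0.439 when scaled to hairpin reads to 0.742 when scaled to the coding reads of other genes, and the coding share stayed lower in the AICAR library in each of 10, by 1.72 to 4.73 percentage points (differences of -1.72 to -4.73). The count of genes higher in AICAR was 0 in each of 21 alternatives. The count of genes lower in AICAR, 16, was within 1.5 times of that in 14 of 21. It was 7 with only tags found in both libraries, 9 with only tags that match no other gene, 4 when scaled to sense protein-coding reads, 4 when scaled to the coding reads of other genes, 61 when scaled to hairpin reads, 59 with a fold of 1.5, and 0 with edgeR's exact test at an assumed coefficient of variation of 0.4. The cause was not tested for the counts of 7 and 9, and the other counts follow from the scale, the threshold or the assumed spread itself. The share over all protein-coding genes is not given for these alternatives, so the counts describe the settings and not the ribosomal protein genes alone. With the tags found in both libraries and those that match no other gene, the median fold of the tested genes was 0.675 and 0.706. The difference in the share of 20 to 24 nt tags, 0.673 percentage points, turned to -0.908 with only tags found in both libraries and to -0.00145 with only tags of at least 2 reads, and its p was never below the threshold. It could not be computed with tags of at least 24 nt. With 1 library per condition the spread between cultures is unknown, and genes under 10 reads could not be tested. No paired analysis was possible because each condition has 1 library.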

Other observations

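Reads outside the members were also counted on the same transcripts. Tags of 18 and 19 nt that match the ribosomal protein transcripts in sense had 4095 reads under DMSO and 2446 under AICAR, a fold of 0.534 (0.508 to 0.562), below the fold of 0.593 of the longer tags. Tags that match these transcripts only in antisense had 119 and 169 reads, or 6.31 and 8.01 RPM, a fold of 1.27 (0.999 to 1.62). All antisense tags of protein-coding transcripts had 20206 and 35809 reads, a fold of 1.59 (1.56 to 1.61). The tags that were left out because they also match a miRNA hairpin entry had 758 and 767 reads. Of these, 384 and 270 reads were on Rps16 tags that match the hairpin entry Gm22411, and 176 and 218 on Rps13 tags that match Gm26318.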
